A study of Mus musculus with 74 samples.

Results

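Amino acid transporters carry amino acids across cell membranes. In this set of mouse mammary tumors (PT) and lung metastases (Lung met), the transporter genes were taken as every gene whose name starts with Slc1a, Slc3a, Slc6a, Slc7a, Slc36a, Slc38a or Slc43a. The rule used gene names and no measured value. It found 40 genes over 5 tables of group means, of which 33 had means in every table. FVB Her2 had 37 of them among 18208 genes, FVB C3Tag had 39 of 19321, BALB PyMT-F1 had 36 of 17363 and SEAGN PyMT-F1 had 37 of 17404. A further table, deposited under the strain name AKR, held 38 of 17945. Of the 40 names, Slc7a6os belongs to the gene on the opposite strand beside Slc7a6 and not to a transporter, and it was kept because the rule takes names. In BALB and SEAGN, 2678 and 2686 rows carried no gene name, so members could be hidden among them.

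Bulk RNA was sequenced from 74 tissue samples. All models were transgenic mice. MMTV-Her2, MMTV-Myc and C3TAg mice were on the FVB background. The MMTV transgenes are driven by the mammary tumor virus promoter, and C3TAg mice carry the viral T antigen under the C3(1) promoter. PyMT-F1 mice came from FVB males with the MMTV-PyMT transgene, crossed to BALB, SEA/GnJ or AKR/J females. There were 6 PTs and 6 Lung mets per model, apart from 7 of each in C3Tag. Each table gave a single least-squares mean of normalized counts per gene and tissue, so no mean below has an SD, and the depth of each sample is unknown. In Her2, Myc and C3Tag mice with single lesions, the tumors were removed by surgery and the mice aged further. PyMT mice were aged to a humane endpoint, and ages were not given in the sources used here. All primary tumors of a mouse were combined, and a metastasis was used whole, with whatever lung and vessels it held. The tumor strains of the PyMT-F1 samples came from the sample titles, which conflicted with other labels of the same samples. The values of the AKR-named table matched those that the study lists for another strain, BL6, so its strain is in doubt, and it was kept out of the comparison across models. The Myc table held the authors' comparison alone, with no means, and was not analysed here.

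The 7 families differ in how they work. Slc1a genes encode sodium-coupled glutamate carriers and the neutral exchangers Slc1a4 and Slc1a5. Slc3a genes encode heavy chains that bring the Slc7a light chains to the membrane, among them the leucine exchanger Slc7a5 and the cystine-glutamate exchanger Slc7a11, while other Slc7a proteins carry arginine and lysine without a heavy chain. Slc6a proteins take up neurotransmitters, taurine, creatine and neutral amino acids. Slc36a proteins move amino acids with protons, Slc38a proteins carry glutamine and small neutral amino acids, and Slc43a proteins are facilitative carriers. Several of these genes are known targets of Atf4, the transcription factor of the amino acid starvation response.

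The stretches of promoter that hold the Atf4 core are shown because that motif is the best known regulatory sequence of these genes. It was searched as TGATGNAA on either strand, from 250 bases before to 50 after each RefSeq start site of build GRCm38.p6. A RefSeq promoter was matched for 27 of the 40 genes. The motif was in a promoter of 3 of the 27, or 11.1%, against 1219 of 27025 genes, or 4.51%, and the capitals below mark it. Slc7a11 held it on both strands, 66 and 47 bases before the start, in a window at chr3:50443633-50443699 on the minus strand. Slc1a4 held it across its start site, at chr11:20332690-20332737 on the minus strand. Slc7a7 held it at separate places, at chr14:54417918-54417965 and chr14:54418058-54418105 on the minus strand, beginning 1 and 141 bases before a start.
Slc7a11: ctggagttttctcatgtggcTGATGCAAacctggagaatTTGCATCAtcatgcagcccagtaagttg
Slc1a4: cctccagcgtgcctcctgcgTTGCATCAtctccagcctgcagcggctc
Slc7a7, nearer: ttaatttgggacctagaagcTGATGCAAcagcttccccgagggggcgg
Slc7a7, farther: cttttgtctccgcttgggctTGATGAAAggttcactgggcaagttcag
A match is a description of these letters and shows no binding. The genes with the motif did not share a direction in the means that follow: Slc7a11 was higher in Lung met in each table, while Slc1a4 and Slc7a7 were higher in some and lower in others.

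The main question was how the level of each transporter gene in Lung mets compared with that in PTs. A difference is given as the quotient of both means, on the log2 scale where stated, with positive values for a higher mean in Lung met. A gene was counted as higher or lower when the means differed at least 2-fold and their average over both tissues was at least 10. Since no spread between mice was analysed, such a count is no test. Each table also shows how often any gene passed that fold.

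In Her2, 3 of the 37 members were at least 2-fold higher in Lung met and 1 was lower. Among all 17100 genes past the minimum, 2.25% were higher and 1.42% lower. Slc7a2, a carrier of arginine and lysine, had the highest quotient, with a mean of 80.7 in PT and 259 in Lung met. Slc7a3, its relative, was near the minimum at 7.00 and 16.0. Slc6a15, a carrier of neutral amino acids, had 198 and 408. Slc6a17, which loads neutral amino acids into vesicles of neurons, was lower, at 56.7 in PT and 26.6 in Lung met. The median log2 quotient of the members was 0.04, against -0.00 for all genes. The mean was higher in Lung met for 19 of the 37 members and for 8471 of the 17100 genes.

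C3Tag had the most members past the fold. Of 38 past the minimum, 7 were at least 2-fold higher and 1 was lower, where 7.52% and 1.61% of 18331 genes were. The median log2 quotient was 0.34 for the members and 0.01 for all genes. The mean was higher in Lung met for 31 of the 38 members and for 9428 of the 18331 genes. The C3Tag means summed to 40891823 in PT and 23447977 in Lung met, against sums that were close in the other tables. The transcripts Gm22614, Gm25890 and Gm24830, named here after their values were seen, made up this gap, since without them the sums were 22613769 and 23447919. Dividing by the sums would add 0.80 to every C3Tag log2 quotient, which put 26 members past the fold on the higher side and 0 on the lower, with 30.2% and 0.573% of all genes, and gave a median of 1.14 for the members and 0.81 for all genes. Slc6a14, a carrier of neutral and cationic amino acids known from epithelia, had a mean of 27.4 in PT and 195 in Lung met, a quotient of 7.14. Slc38a4, a system A transporter, had a row with means in C3Tag only, at 14.7 and 56.6. Slc7a11 had 327 in PT and 1156 in Lung met, a quotient of 3.53. These genes were followed by Slc43a2 at 2.68, Slc6a2 at 2.37, Slc7a4 at 2.25 and Slc38a3 at 2.25. Slc6a17 was the member below the fold, at 86.5 in PT and 28.4 in Lung met.

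In BALB, 2 of 35 members past the minimum were at least 2-fold higher and 1 was lower, against 2.07% and 2.14% of 15397 genes. Slc43a3 had a mean of 149.6 in PT and 356 in Lung met. Slc1a1, a carrier of glutamate and cysteine, had 178 and 359 and so lay just past the fold. Slc6a17 was again the lower member, at 22.5 in PT and 8.84 in Lung met. Just short of the fold on the lower side lay Slc1a2, Slc38a1 and Slc6a2, whose PT means were 1.98, 1.96 and 1.96 times those in Lung met. Median log2 quotients of 0.03 for members and 0.03 for all genes did not separate the members from the table. The mean was higher in Lung met for 18 of the 35 members and for 8700 of the 15397 genes.

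In SEAGN, 1 of 33 members past the minimum was at least 2-fold higher and 3 were lower, against 2.65% and 2.90% of 15401 genes. Of the 33, 22 had the higher mean in Lung met, as did 8232 of the 15401 genes. Slc6a15 had a mean of 102 in PT and 21.7 in Lung met, which was 4.71 times lower. Slc6a2 had 122 and 49.0. Slc1a2, a glutamate carrier, had 103 and 44.4. The member past the fold on the higher side was Slc6a14, at 72.9 in PT and 149 in Lung met. The median over members was 0.12 on the log2 scale and over all genes 0.02.

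In the AKR-named table, 5 of 37 members past the minimum were at least 2-fold higher and 1 was lower, against 7.16% and 1.63% of 16791 genes. Slc36a2, a proton-coupled carrier of glycine and proline, had a mean of 9.59 in PT and 38.7 in Lung met. The others above the fold were Slc6a2 at a quotient of 2.84, Slc43a3 at 2.35, Slc1a3 at 2.30 and Slc7a11 at 2.07. Slc38a3, a glutamine carrier, was lower, at 989.9 in PT and 458 in Lung met. The members' median was 0.08, against 0.01 for all genes. The mean was higher in Lung met for 19 of the 37 members and for 8516 of the 16791 genes.

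**Figure D1:**
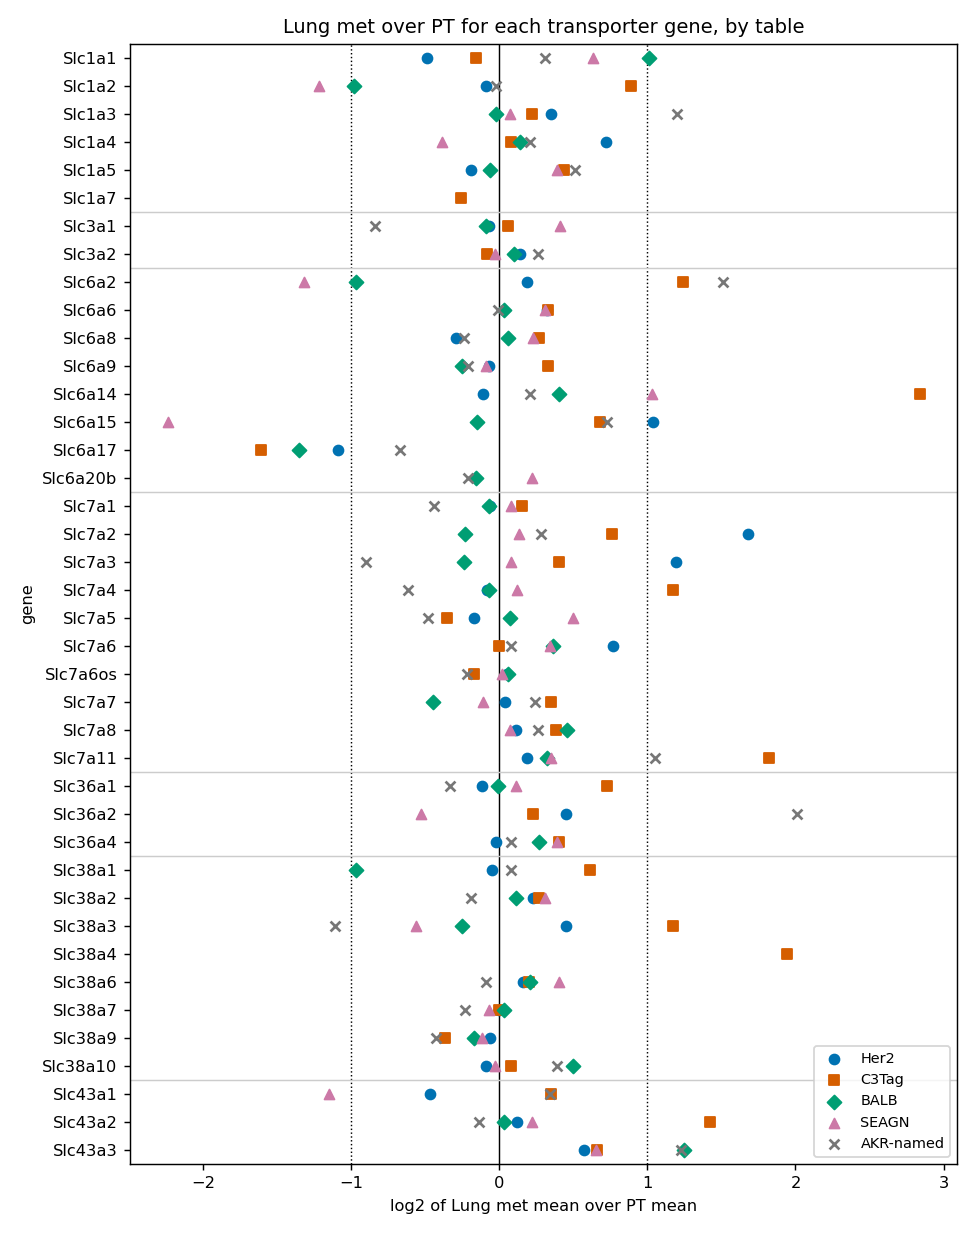
Each point is the log2 of the Lung met mean over the PT mean of 1 transporter gene (rows, by family) in 1 table (color and shape), with dotted lines at a 2-fold difference. The C3Tag squares of Slc6a14, Slc38a4 and Slc7a11 lie farthest to the right among the 4 models, the SEAGN triangle of Slc6a15 farthest to the left, and the Slc43a3 points are to the right of 0 in every table.

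Which differences recurred was asked across Her2, C3Tag, BALB and SEAGN, each of which gave 1 log2 quotient per gene. Limma tested whether the mean of the 4 quotients differed from 0, with the spread between models as the error, over 11946 genes measured in every model. BALB and SEAGN share the PyMT driver and FVB fathers, and the paper describes the SEA/Gn strain as bred in part from BALB. The driver models share the FVB strain. The models are therefore not fully separate. Over all genes 61 were called higher in Lung met, or 0.511%, and 15 lower, or 0.126%, at an adjusted p under 0.05. Of the 32 members fitted, limma called 0. At an unadjusted p under 0.05 there were 6 members, or 18.8%, against 15.1% of all genes, and all 6 had the higher mean in Lung met, as did 72.1% of all genes at that p. They were Slc43a3, Slc38a2, Slc6a6, Slc38a6, Slc36a4 and Slc7a6. Limma without a trend also called 0, with 7 members at an unadjusted p under 0.05. With the means divided by their column sums, which shifts the C3Tag quotients, limma called Slc43a3 and Slc6a14 higher, among 309 genes called higher and 369 called in all. The median SD between models was 0.32 on the log2 scale for the members and 0.18 for all genes. Their median mean log2 was 0.15, against 0.02 for all genes.

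Direction alone was also counted. Of the 32 members, 7 had the higher mean in Lung met in all 4 models, or 21.9%, where 17.0% of all genes did: Slc43a3, Slc38a2, Slc6a6, Slc38a6, Slc43a2, Slc7a8 and Slc7a11. Slc38a9 was the only member with the lower mean in each, or 3.12%, where 9.07% of all genes did. In the AKR-named table the same direction held for 3 of the 7, Slc43a3, Slc7a8 and Slc7a11, and for Slc38a9.

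Slc43a3 had the smallest p among the members. It lies at chr2:84936579-84958509 on the plus strand of GRCm38, and its protein is known to carry purine nucleobases rather than amino acids. Its mean was 569.7 in PT and 846 in Lung met of Her2. It was 1099 and 1741 in C3Tag. In SEAGN it was 182 and 285. With the BALB values above, the Lung met mean was the higher one in each model, by 1.48 to 2.38 times. The mean log2 quotient was 0.78 ± 0.32 (SD, n = 4 models), with a limma adjusted p of 0.0933. Adding the AKR-named table, where the means were 965 and 2269, gave a mean log2 of 0.87 and an adjusted p of 0.0268. Over all alternatives the adjusted p ran from 0.0245 to 0.280. The lowest came from division by column sums, which shifts the C3Tag quotients of all genes. Endothelial markers were also higher in Lung met. All 7 (Pecam1, Cdh5, Vwf, Tek, Kdr, Cldn5 and Egfl7) had means in every table, and Vwf and Cldn5 were called higher across models at an adjusted p of 0.0469 each. Summed over the 7, the Lung met level divided by the PT level was 1.71 in Her2, 2.98 in C3Tag, 1.65 in BALB, 1.76 in SEAGN and 3.83 in the AKR-named table. The quotient of Slc43a3 itself was 1.48 in Her2, 1.58 in C3Tag, 2.38 in BALB, 1.57 in SEAGN and 2.35 in the AKR-named table. For the lung capillary markers with means, the same summed quotient was 1.30 in Her2, 0.979 in C3Tag, 1.11 in BALB and 1.43 in SEAGN. It was 1.66 in the AKR-named table. These capillary sums mix directions. Ednrb had log2 quotients of -0.44 in Her2, -0.56 in C3Tag, -1.71 in BALB, -2.15 in SEAGN and 0.05 in the AKR-named table. Kitl had -0.30 in C3Tag. Gpihbp1 and Prx had the higher mean in Lung met in every table, and Tmem100 had 1.67 to 4.41 where it was listed. The part of these markers in the Slc43a3 difference was not tested. In bulk tissue, more cells of a type and more RNA per cell cannot be told apart.

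**Figure D2:**
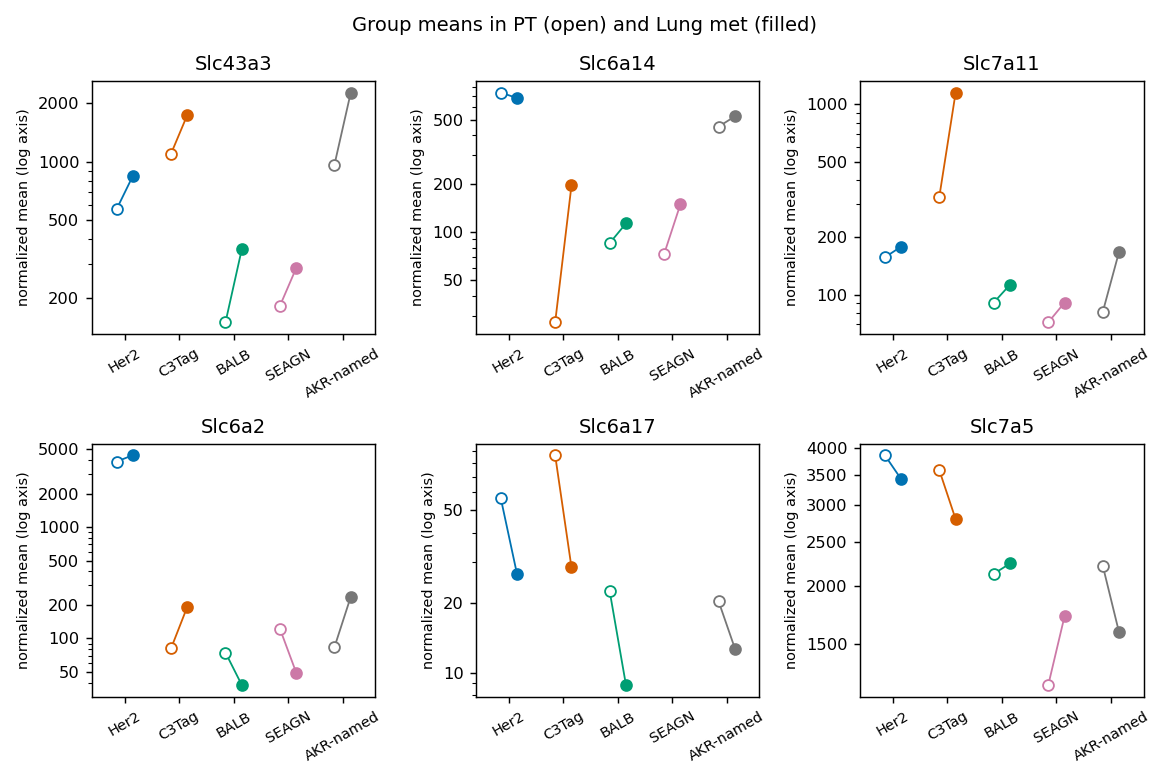
Normalized group means (log axis, a separate range per gene) of 6 transporter genes in PT (open circles) and Lung met (filled circles), joined by a line within each table. Slc43a3 and Slc7a11 lines go up in all 5 tables, the Slc6a17 lines go down in the 4 tables that list it, and Slc6a2 in Her2 lies far above the other tables.

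Among the other Slc43a genes, Slc43a2 carries branched-chain amino acids and phenylalanine. Its mean in C3Tag was 572 in PT and 1534 in Lung met. The quotients in the other models were small, 1.09 in Her2, 1.02 in BALB and 1.17 in SEAGN. Its mean log2 was 0.45 ± 0.65 (SD, n = 4 models), so the spread between models was larger than the mean. Slc43a1, a relative that also carries branched-chain amino acids, was low where it was listed, between 2.83 and 28.9, and had no row in BALB.

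Among the heteromeric transporters, Slc3a2 and Slc7a5 were abundant and Slc3a1 was low. Slc3a2, the heavy chain of CD98, had means of 4648 in PT and 5106 in Lung met of Her2. It had 4033 and 3828 in C3Tag. Its mean log2 quotient was 0.03 ± 0.10 (SD, n = 4 models), among the smallest in size and spread. Slc7a5, its light chain for leucine and other large neutral amino acids, had a lower mean in Lung met in Her2, 3857 against 3422, and in C3Tag, 3579 against 2799.9. In BALB it had 2131 in PT and 2244 in Lung met, and in SEAGN 1221 and 1725. Both driver models thus had the lower mean in Lung met and both PyMT-F1 models the higher one, while the AKR-named table had the lower one, at 2219.8 and 1589. The mean log2 was 0.01 ± 0.37 (SD, n = 4 models), with a limma adjusted p of 0.980. Slc3a1, the heavy chain of the cystine carrier of kidney, stayed between 10.6 and 19.8 in all tables.

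Slc7a11, the light chain that takes up cystine in exchange for glutamate, was higher in Lung met in each table, but unevenly. Outside C3Tag, the means were 157 and 179 in Her2, 90.9 and 113 in BALB, and 71.5 and 90.9 in SEAGN. The C3Tag quotient of 3.53 stood apart from quotients of 1.14 to 1.27 in the other models. The AKR-named table had 81.0 and 168, a quotient of 2.07. The mean log2 was 0.67 ± 0.77 (SD, n = 4 models), with a limma adjusted p of 0.367. Without C3Tag the mean log2 was 0.29. With the AKR-named table added it was 0.75, at a limma adjusted p of 0.203. Among the other light chains, Slc7a6 had a mean log2 of 0.37 ± 0.32 and was level in C3Tag, at 712 in both tissues. Slc7a8, a carrier of neutral amino acids, had 0.25 ± 0.19 and the higher mean in every table. Slc7a7, which exports arginine, had -0.04 ± 0.33 (SD, n = 4 models for each).

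Of the cationic carriers, Slc7a1 was even between tissues, with a mean log2 of 0.03 ± 0.11 (SD, n = 4 models). Slc7a2 spread much more, at 0.58 ± 0.84. Its PT mean in Her2, 80.7, was at percentile 12.5 of that table per kilobase, whereas its PT means in C3Tag, BALB and SEAGN were at 43.9, 56.6 and 61.7. Slc7a4, whose substrate is not settled, had 45.1 in PT and 101 in Lung met of C3Tag and a mean log2 of 0.28 ± 0.60. Slc7a3 passed the minimum in 2 of the 4 models.

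Slc6a14 had the highest mean log2 of all members fitted, 1.04 ± 1.29 (SD, n = 4 models), with a limma adjusted p of 0.387. Its mean in Her2 was 737 in PT and 681 in Lung met. In BALB it was 85.2 and 113. It was therefore more than 2-fold higher in C3Tag and SEAGN, slightly higher in BALB and slightly lower in Her2. Without C3Tag the mean log2 was 0.44. With means divided by their column sums it was 1.20, with a limma adjusted p of 0.00432. That scaling was chosen after seeing the data and adds 0.80 to the C3Tag log2 quotient of every gene. Its p therefore does not speak to Slc6a14 alone. Over the other alternatives the limma adjusted p ran from 0.339 to 0.638. The PT mean in C3Tag, 27.4, was at percentile 9.53 per kilobase, against 65.1 in Her2. The summed means of lung epithelium markers were higher in Lung met too. Of 6 airway markers, the defining Scgb1a1, Scgb3a2 and Bpifa1 had no row in any table. The summed mean of those listed was 2.73 times higher in C3Tag, 4.27 times in SEAGN and 1.62 times in BALB. It was also 1.85 times higher in Her2, where Slc6a14 was not higher. Of the listed airway markers, Cyp2f2 had log2 quotients of 1.02 to 3.63. Tppp3 ran from 0.02 in Her2 and 0.05 in BALB to 1.88 in the AKR-named table. Foxj1, with no value in Her2, had -0.42 in SEAGN and 0.26 to 0.94 in the other tables. Of 6 alveolar type 2 markers 3 had means, and Sftpc, Sftpb and Sftpa1 had none. Their summed quotients were 17.4 in C3Tag, 3.50 in SEAGN, 2.24 in BALB and 1.37 in Her2. Of the 3, Abca3 had log2 quotients of -0.02 in Her2 and -0.21 in the AKR-named table. In the AKR-named table the airway and alveolar type 2 sums were 3.80 and 2.51 times higher, and the Slc6a14 quotient was 1.16. The part of these markers in the Slc6a14 difference was not tested.

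Slc6a17 was the member that was at least 2-fold lower in the most models, 3 of the 3 that listed it. Its log2 quotient was -1.09 in Her2, -1.61 in C3Tag and -1.35 in BALB, and -0.67 in the AKR-named table, at means of 20.3 and 12.7. It had no row in SEAGN and so was not fitted, and its mean log2 of -1.35 ± 0.26 (SD, n = 3 models) is a value with no test. Its levels were low, at most at percentile 10.1 of PT means per kilobase in each table that listed it. Its relative Slc6a15 went opposite ways, higher in Lung met of Her2 and C3Tag and lower in BALB and SEAGN, with a mean log2 of -0.17 ± 1.47 (SD, n = 4 models), the largest spread of any member.

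Slc6a2, the noradrenaline transporter, differed between models in level and direction. In Her2 its means of 3887 in PT and 4433 in Lung met put it at percentile 86.4 of PT means per kilobase and at rank 5 among the members. In C3Tag, with 81.2 in PT and 193 in Lung met, it was at 15.1, and in BALB and SEAGN at 23.3 and 33.0. The BALB means were 74.6 and 38.1. It was thus higher in Lung met of the driver models, lower in the PyMT-F1 models BALB and SEAGN and higher in the AKR-named table, where it had 83.4 and 237. The mean log2 was -0.21 ± 1.17 (SD, n = 4 models), with a limma adjusted p of 0.857. Of 5 sympathetic nerve markers, Th, Dbh and Snap25 had no row in any table, while Stmn2 or Tubb3 had means. The summed mean of the listed markers was 8.71 in PT and 49.6 in Lung met of Her2, from Stmn2 alone. It was 72.2 and 699 in C3Tag, and 41.2 and 245 in the AKR-named table. In BALB it was 3.40 and 12.0, from Stmn2 alone, and in SEAGN 6.81 and 6.94, from Tubb3 alone. Neither marker passed the minimum average of 10 in those models. Stmn2 had the higher mean in Lung met of BALB, where Slc6a2 had the lower one. The part of these markers in the Slc6a2 difference was not tested. Slc6a4, the serotonin transporter, had no row in the 5 tables.

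The taurine transporter Slc6a6 had means of 1601 in PT and 1999 in Lung met of Her2, and its mean log2 was 0.25 ± 0.15 (SD, n = 4 models), with a limma adjusted p of 0.225. The creatine transporter Slc6a8 had 0.07 ± 0.25 and the glycine transporter Slc6a9 -0.02 ± 0.25. The PT mean of Slc6a9 per kilobase was at percentile 18.1 in Her2, 29.6 in BALB, 27.4 in SEAGN and 60.5 in C3Tag. Slc6a20b, a proline carrier, had rows only in BALB, SEAGN and the AKR-named table, between 7.36 and 33.9.

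Glutamine carriers of the Slc38a family were mostly even. Slc38a2, a system A transporter known to be induced by amino acid starvation, was 8018 in PT and 9418 in Lung met of Her2. It was 9001 and 10842 in C3Tag. The quotients were 1.08 in BALB and 1.24 in SEAGN, but 0.879 in the AKR-named table. The mean log2 of 0.23 ± 0.09 (SD, n = 4 models) was small with a small spread, and its limma adjusted p was 0.186. Slc38a1, its relative, had 1904 and 2904 in C3Tag, 1065 and 543 in BALB, and no estimate in SEAGN. Slc38a3 was higher in Lung met of Her2 and C3Tag and lower in BALB and SEAGN, with a mean log2 of 0.20 ± 0.77. Slc38a6 had 0.24 ± 0.11, Slc38a7, a glutamine exporter of lysosomes, -0.01 ± 0.04, and Slc38a10 0.12 ± 0.27. Slc38a9, the lysosomal arginine sensor, was lower in Lung met in each table, with log2 quotients of -0.06 to -0.37 in the 4 models and -0.43 in the AKR-named table. Its mean log2 was -0.18 ± 0.13 (SD, n = 4 models), with a limma adjusted p of 0.361.

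The Slc1a and Slc36a genes showed no shared direction. Slc1a5, the neutral exchanger known for glutamine uptake, had 295 in PT and 259 in Lung met of Her2, and 859 and 1167 in C3Tag. In BALB it had 170.4 and 164, and in SEAGN 161 and 211. The mean log2 was 0.15 ± 0.32 (SD, n = 4 models). Slc1a4 had 0.14 ± 0.45 and Slc1a3, a glutamate carrier, 0.16 ± 0.16. Slc1a1 was lower in Lung met of the driver models and higher in BALB and SEAGN, with a mean log2 of 0.25 ± 0.69. Slc1a2 was higher in C3Tag only, with -0.35 ± 0.96. Slc1a7 was listed in C3Tag alone, at 5.97 and 5.00. Of the proton-coupled carriers, Slc36a1 had 0.18 ± 0.38 and Slc36a4 0.26 ± 0.19, and Slc36a2 was between 7.42 and 53.1 in all tables that listed it. Slc7a6os had -0.01 ± 0.11.

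Levels were compared between genes per kilobase of exon, as the share of a table's genes of known exon length with a lower mean. In BALB and SEAGN 14252 of 17270 and 14317 of 17351 genes with means had a known length, against 18155 of 18208 in Her2. Percentiles of different tables thus rest on somewhat different sets of genes. The median PT percentile of the members was 47.3 in Her2, 42.2 in C3Tag, 38.1 in BALB, 35.2 in SEAGN and 40.0 in the AKR-named table. Slc3a2, Slc7a5 and Slc38a2 were the top 3 in each of the 4 models, between 91.0 and 97.4. In the AKR-named table the top 3 were Slc3a2 at 91.9, Slc38a10 at 89.6 and Slc38a2 at 87.6, ahead of Slc7a5 at 85.2. Slc38a10, Slc6a6 and Slc6a8 followed in most tables. At the other end, 9 to 14 members per table lay under percentile 25. These means have no spread, so neighbours in the order cannot be told apart by a test.

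**Figure D3:**
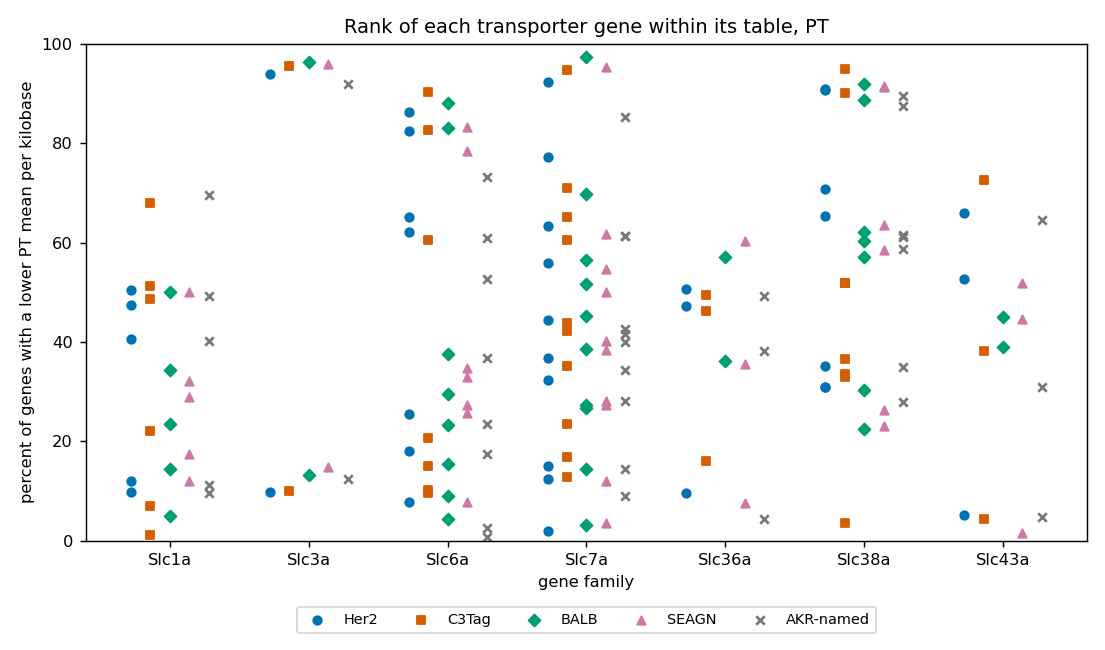
Each point is 1 transporter gene in 1 table, placed by family and by its PT mean per kilobase of exon. The height is the percent of that table's genes of known exon length with a lower value. Slc3a2 and Slc3a1 mark the high and low points of Slc3a, Slc7a5 is the top point of Slc7a in every table, and the Slc6a, Slc7a and Slc38a families span from low to high.

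Some members share their locus with another gene. In the GENCODE annotation 7 of the 40 overlap a coding gene on the opposite strand: Slc1a1, Slc3a1, Slc6a9, Slc6a20b, Slc7a4, Slc7a5 and Slc7a7. The library kit named in the labels keeps strand, but whether the counting used it was not given in the sources used here, so reads of overlapping exons may be shared.

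Genes of related pathways were mostly even between tissues, and limma called 0 of them across models. Of 18 genes of the amino acid response and serine synthesis, 17 were fitted, and 1 had an unadjusted p under 0.05, or 5.88%, against the 15.1% of all genes. The highest mean log2 values were 0.49 ± 0.19 for Sesn2, a leucine sensor, and 0.32 ± 0.42 for Chac1, which degrades glutathione. The lowest were -0.52 ± 1.13 for the secreted hormone Stc2 and -0.17 ± 0.25 for the stress factor Ddit3 (SD, n = 4 models for each). Atf4 itself had 0.05 ± 0.11. The list's median log2 quotient ran from -0.06 to 0.16 over the 5 tables.

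The 12 genes of glutamine and glutathione metabolism were all fitted, with 5 at an unadjusted p under 0.05, or 41.7%, against the 15.1% of all genes. Gclc, the catalytic subunit of the first enzyme of glutathione synthesis, had a mean log2 of 0.92 ± 0.82. It was higher in each table, with a log2 quotient of 2.06 in C3Tag, the model with the highest quotient of Slc7a11. Got1, a transaminase, had 0.40 ± 0.32. The lowest were Gpx4, which repairs lipid peroxides, at -0.06 ± 0.21 and Got2 at 0.01 ± 0.16 (SD, n = 4 models for each). The list's median was 0.36 in C3Tag and 0.03 to 0.20 in the others.

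Of 24 genes of amino acid sensing by mTORC1, 20 were fitted, with 3 at an unadjusted p under 0.05, or 15.0%. Rragc, a Rag GTPase, had 0.22 ± 0.11 and was second to Sesn2, which both lists hold. Rragd, another Rag GTPase, had -0.34 ± 1.00 and Itfg2, of the KICSTOR complex, -0.23 ± 0.60. Of 23 amino acid and peptide transporters of other families, 15 were fitted, with 1 at an unadjusted p under 0.05, or 6.67%. The peptide transporters Slc15a1 and Slc15a3 had 1.13 ± 1.25 and 0.52 ± 0.17, Slc16a10, a carrier of aromatic amino acids, -0.14 ± 0.12, and the mitochondrial carrier Slc25a13 -0.06 ± 0.24 (SD, n = 4 models for each). Medians of both lists lay between 0.01 and 0.10 in every table.

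Markers of other cell types were also compared. The median log2 quotient of the 6 alveolar type 1 markers was 2.89 to 3.92 over the tables, and limma called 4 of them higher across models. Their summed level in Lung met was 4.74 times that in PT in C3Tag, 2.22 times in SEAGN and 2.08 times in the AKR-named table, but 0.976 times in Her2 and 0.834 times in BALB, where Aqp5 had the lower mean in Lung met, at log2 quotients of -0.13 and -0.66. The 6 fibroblast markers had medians of -1.30 to -2.37 in Her2, BALB, SEAGN and the AKR-named table but -0.03 in C3Tag. Of them, Pdgfra went the other way, with the higher mean in Lung met in every table, at log2 quotients of 0.44 to 0.94. Skeletal muscle markers, of which 1 to 4 of 6 were listed in the 4 models, had medians of -3.12 to -4.67 there. The AKR-named list held 5 of them, with a median of 0.06. Macrophage markers had medians of -0.36 to 0.43, close in size to those of the transporters. The 5 luminal epithelial markers, of the lineage the tumors come from, had medians between -0.09 and 0.23. The summed level of 6 proliferation genes in Lung met was 0.627 times that in PT in C3Tag and 1.24 times in SEAGN. No adipocyte marker had means in any table. The part of these cell types in the transporter values was not tested.

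**Figure D4:**
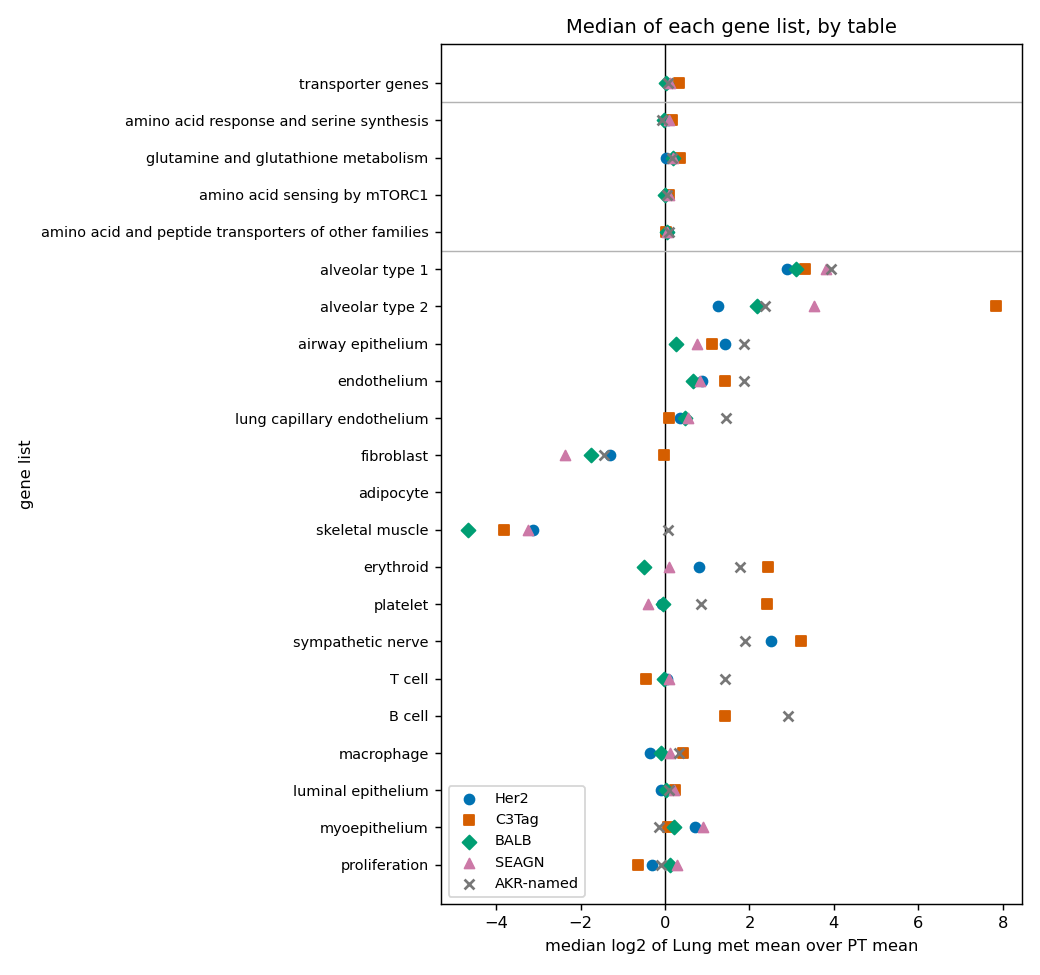
Median log2 of the Lung met mean over the PT mean for the transporter genes (top row), 4 related pathway lists and 17 marker lists, with 1 point per table and no point where no gene of the list passed the minimum. Transporter and pathway medians lie close to 0, between -0.06 and 0.36, while alveolar markers lie above 1 and skeletal muscle markers below -3 in the 4 models.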

How the data were processed

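RNA of 74 PT and Lung met samples was sequenced. The authors used Partek Flow for alignment, counting and the comparison of tissues (Gene Specific Analysis in the driver models, DESeq2 in PyMT-F1). The methods name mm9 and mm10, and the submitters' processing notes list STAR 2.7.8a and mm39. Of the deposited columns, the least-squares mean of each tissue was used, a signal on the scale of normalized counts, with each table normalized separately by a method not given in the sources used here. Since replicates were pooled, depth and spread between mice are unknown. The p-value, FDR, ratio and fold change columns hold the authors' comparison and were not used, and the Myc table holds only a p-value and an FDR. For C3Tag, the study lists more PTs than are labelled, and which entered was not settled.

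The members and lists were chosen with earlier results of these data known. Genes were joined by a symbol occurring once per table, and the quotients of 4 models were tested with limma 3.58.1 in R 4.3.3 (moderated one-sample test with trend, Benjamini-Hochberg over 11946 genes, mean of at least 10 in each model). On simulated data for these genes 81.0% of shifts of 1 on the log2 scale were recovered and 92.0% of shifts of 2, with 7.49% of calls being unchanged genes. The simulated models were independent, and the shifted genes were drawn from all genes. Their median SD between models is 0.18, against 0.32 for the members, so recovery may be lower for the members. Exon lengths and coordinates are from GENCODE M21 on GRCm38, matched by identifier or, for BALB and SEAGN, by symbol. The genes to be named were those called across models, at least 2-fold different the same way in 2 or more models, among the 3 highest PT means per kilobase or the extreme quotients of a table, or well studied. The other members were named so that all were accounted for. Of each pathway list the 2 highest and 2 lowest genes were named, and Atf4 and single markers were named after their values were seen. Alternatives were another fold, another or no minimum, a pseudocount of 1, centring on the median, leaving out each model, adding the AKR-named table, limma without trend and, added after seeing the data, means divided by their column sums. Python 3.11.15, numpy 2.4.6, pandas 2.3.3 and matplotlib 3.10.9 were used.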

Additional observations from a re-analysis of the deposited data

How the results depend on the processing

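Of the counts and medians given for the members, 89 values under an alternative stayed within the range set for them and 18 moved. With a fold of 1.5 the members higher in Lung met numbered 5 in Her2, 13 in C3Tag and 3 in SEAGN, and the lower ones 4 in BALB and 5 in the AKR-named table. With a minimum mean of 50 the lower members numbered 0 in Her2 and 0 in BALB, since Slc6a17 has a lower mean than that. Centred on the median of all genes, BALB had 1 higher and 4 lower members. With means divided by their column sums, an alternative chosen after seeing the data, the higher and lower members numbered 26 and 0 in C3Tag, where the median became 1.14, and 1 and 4 in BALB. The higher ones numbered 0 in SEAGN and the lower ones 2 in the AKR-named table, and 2 members were called higher across models, Slc43a3 and Slc6a14. That scaling adds 0.80 to the C3Tag quotients of all genes. Adding the AKR-named table gave 1 member called higher across models, Slc43a3, while leaving out each model in turn gave 0 to 0 called in either direction. Over all genes the calls numbered 76 with 4 models, 204 with the AKR-named table added, and 5, 7, 13 and 152 without BALB, SEAGN, Her2 and C3Tag. With a minimum of 50 they numbered 38. These fits differ in their number of models and genes, and the cause of the changes in calls was not tested.

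Of the 349 mean log2 values of single members under an alternative, 315 kept their direction and side of the threshold and 31 reversed, none of them called. Leaving out a model in turn gave means on both sides of 0 for 16 members, whose direction thus depended on the models entered. The range was -0.01 to 0.49 for Slc1a1, -0.06 to 0.31 for Slc1a4, -0.03 to 0.14 for Slc3a1 and -0.00 to 0.07 for Slc3a2. It was -0.70 to 0.15 for Slc6a2, -0.14 to 0.06 for Slc6a9 and -0.57 to 0.52 for Slc6a15. In Slc7a it was -0.02 to 0.06 for Slc7a1, -0.01 to 0.40 for Slc7a4, -0.15 to 0.13 for Slc7a5, -0.03 to 0.04 for Slc7a6os and -0.18 to 0.09 for Slc7a7. It was -0.01 to 0.28 for Slc36a1, -0.12 to 0.46 for Slc38a3, -0.02 to 0.01 for Slc38a7 and -0.01 to 0.18 for Slc38a10. With the AKR-named table added it was -0.06 for Slc38a3, -0.10 for Slc3a1, 0.01 for Slc6a15, 0.13 for Slc6a2, -0.07 for Slc7a1, -0.09 for Slc7a5 and 0.01 for Slc7a7. Centring gave -0.00 for Slc7a5. Division by column sums gave 0.16 for Slc38a7, 0.15 for Slc6a9, 0.16 for Slc7a6os and 0.12 for Slc7a7. No paired analysis was possible because the tables hold a mean per tissue and no value of a single mouse. Low members such as Slc7a3, Slc1a7 and Slc43a1 are limited by their small means.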
